A study of Caenorhabditis elegans with 2 samples.

Results

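One-directional autosomal promoters are candidate binding regions at the 5' end of a protein-coding gene, off the X chromosome. They are not within 1000 bp upstream of 2 genes pointing apart. They were taken from the pooled list of EYG-1 chromatin immunoprecipitation sequencing (ChIP-seq) regions. A region was a member when its summit lay at most 1000 bp upstream or 200 bp downstream of the 5' end of a protein-coding gene in the annotation. Summits within 100 bp of a tRNA, snoRNA, snRNA, miRNA or ncRNA gene were left out. Summits within 1000 bp upstream of 2 genes that point away from each other were left out too. A summit just inside 1 gene and upstream of another that points away from it could stay in. The rule gave 4652 of 24215 pooled regions, or 19.2%. Of these, 319 lay within that range of several genes, and the nearest 5' end was used. The members lay at the 5' ends of 3990 of 17242 autosomal protein-coding genes (23.1%), of which 3363 had 1 member region and 627 had more, up to 3.

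The study mapped where EYG-1, the product of eyg-1 (sequence name Y53C12C.1), sits on chromatin in C. elegans. Strain OP443 carried a stable transgene of the protein with GFP and FLAG at its C-terminus, and an antibody against GFP was used on sonicated chromatin. Hermaphrodite late embryos were taken whole 4 hours after egg bleaching, so many animals and all their cell types were pooled in each library. The 2 libraries, biological replicates 1 and 3, formed 1 group, so there was no comparison of conditions and no test. No wild-type embryos and no other stage were analysed here, and the control library was not used here.

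EYG-1 is a homeodomain protein named after the Drosophila gene eyegone. Homeodomains bind short A/T-rich DNA words around a TAAT core. In C. elegans many messenger RNAs are trans-spliced, which removes the start of the transcript, so the annotated 5' end can lie downstream of the place where transcription begins. Some genes also follow others in an operon and share one promoter.

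The sequence around the summits of the strongest members is shown first. It does not show which bases EYG-1 bound. The following are 151 bp centred on the summit in the reference genome (RefSeq sequence of WBcel235, the same build as ce11), read 5' to 3' along the strand of the gene. They belong to the 4 members of the optimal list, the study's list of reproducible regions, that had the highest pooled signal. Capitals would mark the 7-base element GGCCTAG described below, and these windows hold none.
K12H4.5, chrIII:8043902-8044052, plus strand: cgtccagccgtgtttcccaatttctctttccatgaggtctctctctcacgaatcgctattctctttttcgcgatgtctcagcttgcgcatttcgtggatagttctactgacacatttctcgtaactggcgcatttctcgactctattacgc
M01F1.9, chrIII:3499951-3500101, minus strand: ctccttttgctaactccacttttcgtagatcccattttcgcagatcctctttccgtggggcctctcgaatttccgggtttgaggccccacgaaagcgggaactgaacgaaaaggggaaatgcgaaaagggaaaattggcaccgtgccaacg
rpl-3, chrIII:3867492-3867642, plus strand: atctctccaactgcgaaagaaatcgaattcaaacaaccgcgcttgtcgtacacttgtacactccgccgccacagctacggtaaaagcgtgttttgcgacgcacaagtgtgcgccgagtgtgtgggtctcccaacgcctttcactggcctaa
eel-1, chrIV:3050594-3050744, minus strand: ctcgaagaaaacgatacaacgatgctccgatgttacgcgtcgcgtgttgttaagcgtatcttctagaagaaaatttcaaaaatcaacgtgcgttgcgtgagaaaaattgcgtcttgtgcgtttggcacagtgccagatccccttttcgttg
The next set shows the element itself at 8 other members of the optimal list, the strongest with the element outside the first chromosome. Each window is 31 bp, reads along the strand that spells the element, and has the element in capitals.
cux-7, chrIII:7520845-7520875, minus strand: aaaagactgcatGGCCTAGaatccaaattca
eas-1, chrII:4740172-4740202, minus strand: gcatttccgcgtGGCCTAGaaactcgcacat
R148.3, chrIII:3175197-3175227, plus strand: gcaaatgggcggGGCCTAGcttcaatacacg
cyn-10, chrII:6913493-6913523, minus strand: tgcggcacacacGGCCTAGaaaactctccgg
set-2, chrIII:4930424-4930454, plus strand: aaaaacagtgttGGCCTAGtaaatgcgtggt
F25H9.7, chrV:13468360-13468390, minus strand: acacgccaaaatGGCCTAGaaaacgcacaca
eif-3.B, chrII:14795157-14795187, plus strand: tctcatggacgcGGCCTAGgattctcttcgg
F10E9.11, chrIII:8319314-8319344, minus strand: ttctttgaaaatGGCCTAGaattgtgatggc
In 5 of the 8 the element read along the strand of the gene, and in 3 it read along the other strand.

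Among the members, 83 (1.78%) had a summit of the optimal list within 100 bp. The background was 2.10% over all pooled regions, so the members' share was close to it and is no result about them. The optimal list held 519 peaks, and the members' 83 were 15.99% of it. Divergent autosomal promoters, within 1000 bp upstream of 2 genes that point away from each other, were in the optimal list at 9.54% (74 of 776). X promoters away from small RNA genes stood at 3.25% (26 of 799), and autosomal regions away from promoters at 0.549% (75 of 13656). The members thus lay below both other kinds of promoter and above regions away from promoters. No test was made, since regions of one list are not replicates.

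**Figure D1:**
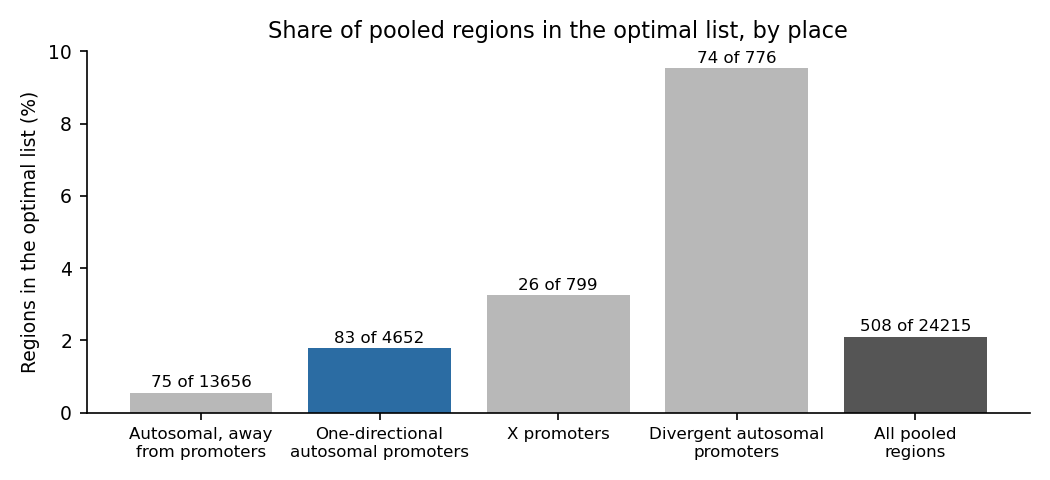
Bars give the percentage of pooled regions in the optimal list for each place in the genome, with the counts above the bars. One-directional autosomal promoters (blue) reached 1.78%, against 9.54% at divergent autosomal promoters and 2.10% over all regions.

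The signal, the value that the authors' peak caller gave each region, ranged over members from 13.4 to 445.7 with a median of 18.7. The median was 18.2 over all pooled regions and 25.5 at divergent promoters. Their median percentile rank, counted from the strongest region, was 46.2, so that most members were ordinary candidates of the list. Members in the optimal list had a median of 87.4 (39.8 to 445.7), and the others a median of 18.6 with a maximum of 93.9. The optimal list was drawn from these same libraries, so this gap is part of how the list was made. Of the 99 members among the 519 strongest pooled regions, 72 were in the optimal list. The strongest of the 27 that were not was at npp-8, a nucleoporin gene, with a pooled signal of 93.9, 35.7 in replicate 1 and 55.5 in replicate 3.

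The highest pooled signal of all 24215 regions was at a member, 510 bp upstream of K12H4.5. Its signal was 445.7 in the pooled list, 170.6 in replicate 1 and 274.8 in replicate 3, and it ranked 1 and 2 in the replicate lists. The summit lay between genes. The upstream neighbour ran on the opposite strand, with a gap of 1611 bp between the 2 genes. The region thus lay between genes that point apart, but not within 1000 bp of both 5' ends. Among members M01F1.9 followed, at rank 7 of the pooled list. Its signal was 277.6 pooled, 147.7 in replicate 1 and 127.4 in replicate 3. Its summit was 969 bp upstream of the 5' end and inside another gene on the same strand. The next was rpl-3, which encodes a protein of the large ribosomal subunit, with 171.3 pooled, 76.8 in replicate 1 and 93.3 in replicate 3. At eel-1, the gene of a HUWE1-type ubiquitin ligase, the values were 153.0, 100 and 55.3. These leading members were high in both libraries.

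Further down the replicates parted. The region at swsn-3, a subunit of the SWI/SNF chromatin remodeller, had a pooled signal of 129.5 with 30.6 in replicate 1 and 103.5 in replicate 3. The heterochronic gene lin-66 had 127.6 pooled, 56.3 and 68.7. At Y50D4C.5 the order was the other way, with 149.3 pooled, 99.6 in replicate 1 and 54.7 in replicate 3. Neither replicate was uniformly the higher one. The scales of the lists differed, with median signals over all regions of 9.93 in replicate 1 and 12.2 in replicate 3. At C47E8.4 the values were 131.6 pooled, 99.6 and 31.7. At plrg-1, which encodes a spliceosome protein, they were 110.8 pooled, 22.6 and 84.9. The region at clec-53, a C-type lectin gene, gave 115.4, 19.4 and 90.8. The rest of the 20 strongest members in the optimal list were at hil-7, cux-7, Y39E4B.6, K05C4.7, tos-1, F39G3.3, eas-1, rps-24, W04C9.4 and R148.3, with pooled signals from 108.7 to 137.6.

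Of the 83 members in the optimal list, 71 (85.5%) had a summit within 100 bp in both replicate lists, 77 in each replicate, and 0 had none in either. Of all members, 915 (19.7%) were matched in both and 891 in neither. The median signal of the 83 was 40.8 in replicate 1 (7.48 to 170.6) and 46.02 in replicate 3 (11.4 to 274.8). In replicate 1, 56 of them were among the 519 strongest regions, in replicate 3 49 were, and 28 were in both. A place in the optimal list therefore did not require a high rank in both libraries.

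The 12 members of the optimal list with a summit match in 1 library only were divided evenly, 6 to each. At sor-1 one region had 104.3 pooled and 61.1 in replicate 1, and at ntl-2, the gene of a CCR4-NOT subunit, the values were 49.4 and 20.7. At daf-19, which encodes an RFX factor of ciliated neurons, the pooled signal was 46.9 and that in replicate 3 was 48.7. The lowest pooled signal of the 83 was 39.8 at aakg-1, a gamma subunit of AMP-activated kinase, with 26.9 in replicate 3 (rank 1089). The optimal list gave those last 2 regions higher signals of its own, 87.6 at daf-19 and 71.6 at aakg-1. By overlap of the regions, all 83 were found in both replicate lists. Neighbouring regions can overlap each other, as at hil-7, so an overlap does not show that the same region was found.

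Across the 71 members of the optimal list matched in both libraries, the log2 signals of the replicates had a Pearson r of -0.22 and a Spearman rho of -0.35. Over all 915 matched members r was 0.48 and rho 0.40. The 71 were selected on the signal of these same libraries. The translation initiation factor subunit genes eif-3.B and eif-3.C illustrate the spread. At eif-3.B the signal was 71.1 in replicate 1 (rank 38) and 12.9 in replicate 3 (rank 10601). At eif-3.C it was 7.48 in replicate 1 (rank 25134) and 77.4 in replicate 3 (rank 102). Pooled, they came out alike, at 90.6 and 84.9.

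**Figure D2:**
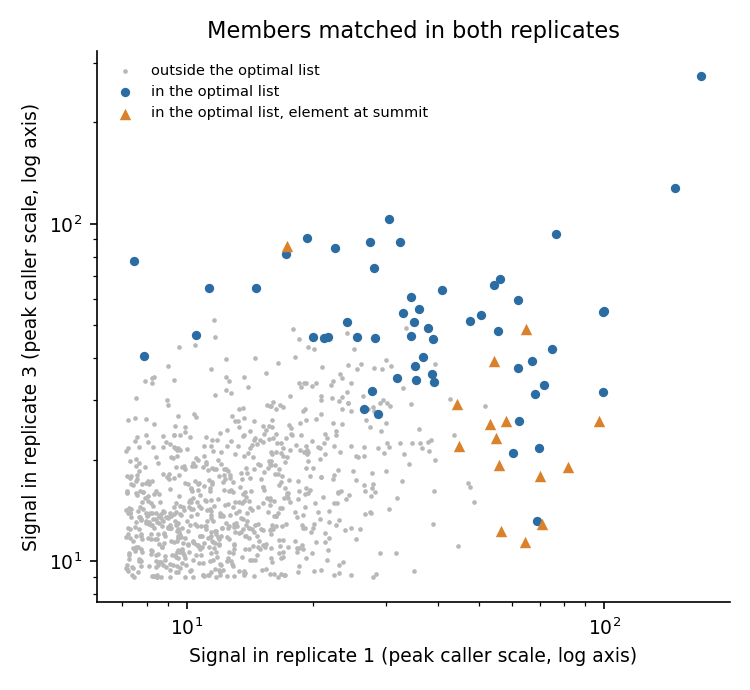
Each point is a member with a summit within 100 bp in both replicate lists, with the signal of replicate 1 on the x axis and of replicate 3 on the y axis, both log axes. Among the 71 in the optimal list the signals run against each other (r of -0.22), and 14 of the 15 with the GGCCTAG element (triangles) rank higher in replicate 1.

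The members filled the whole window, and those in the optimal list sat upstream of the 5' end. Of the 83, 77 (92.8%) had their summit upstream, against 80.2% of the other members. The median was 277 bp upstream (quartiles 446 and 151.5 bp), and 290 bp upstream (609 and 55 bp) for the others. The stretch from 400 to 100 bp upstream held 55.4% (46 of 83) of the members in the optimal list and 29.8% of the others. The share of members in the optimal list was 3.6% from 300 to 200 bp upstream and 3.4% from 200 to 100 bp upstream. In the last 100 bp before the 5' end it was 1.14%, with 0.988% in the first 100 bp of the gene and 0.247% in the next 100. The window itself was set by the rule, but the place within it was not.

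**Figure D3:**
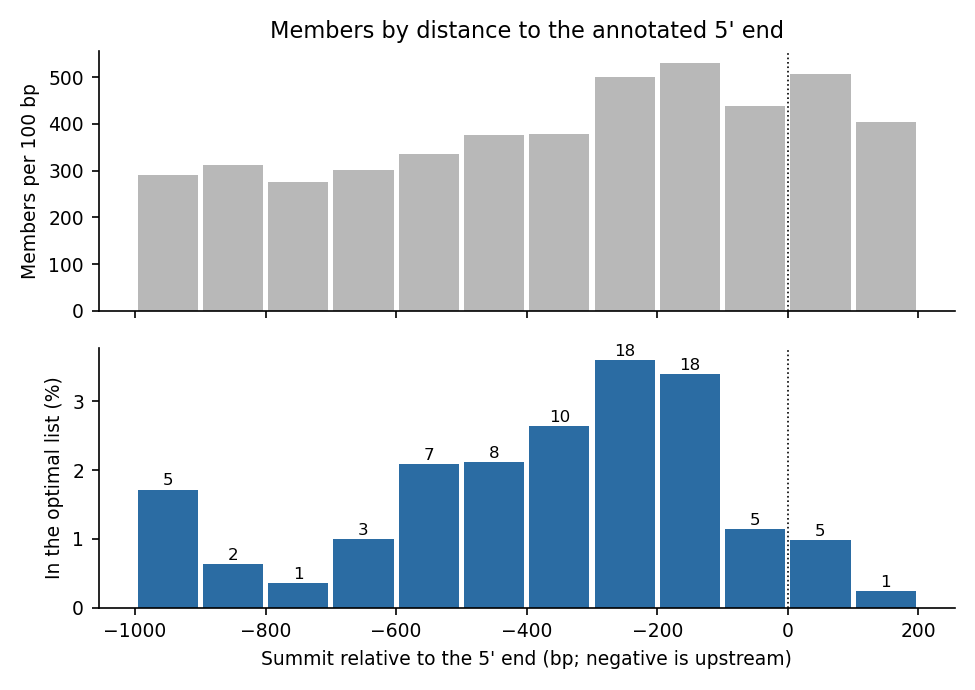
Members by the distance of the summit from the annotated 5' end in bins of 100 bp, with negative values upstream. The upper panel counts all members, and the lower panel gives the percentage in the optimal list with its count above each bar, highest at 3.6% from 300 to 200 bp upstream.

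Most members lay between genes (2727, of which 2.42% were in the optimal list). Summits inside the gene's own body numbered 905, of which 0.663% were in the optimal list. Summits inside another gene were in the optimal list at 1.81% (6 of 332) where that gene lay on the opposite strand and at 0.727% (5 of 688) on the same strand. Where the upstream neighbour ran on the opposite strand the share was 2.28% (36 of 1576), and on the same strand 1.57% (43 of 2748). The members were spread evenly over the strands, with 2348 on plus and 2304 on minus strand genes, and 42 and 41 in the optimal list.

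By chromosome the share in the optimal list was highest on chromosome III, at 2.63% (25 of 951), where it was 2.19% over all pooled regions. On the other autosomes the members lay below the share of all pooled regions. It was 1.73% on II (16 of 923, against 2.05%), 1.56% on IV (13 of 836, against 1.8%), 1.5% on V (14 of 932, against 1.55%) and 1.49% on I (15 of 1010, against 1.73%). The central parts of the chromosomes, each 50% of the length, held 47 of 2298 members in the optimal list (2.05%), and the outer parts 36 of 2354 (1.53%).

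Near the limits of the rule, the members of the optimal list farthest upstream were at lin-23 (977 bp, signal 75.2), an F-box protein gene, and M01F1.9 (969 bp). The nearest beyond 1000 bp were at kin-19 (1177 bp, 64.5) and oxi-1 (1269 bp, 84.9). Farthest downstream were mrt-2, a DNA damage checkpoint gene (151 bp, 71.9), and F25H9.7 (24 bp, 91.5), and beyond 200 bp followed Y55B1AR.2 (359 bp, 60.6) and K05C4.2 (362 bp, 131.6). Nearest to a small RNA gene were hil-7 (113 bp) and ippk-1 (228 bp), and just nearer than 100 bp were sre-23 (99 bp, signal 297.1) and T09B4.3 (91 bp, 100.2).

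Base composition set the members of the optimal list apart from the other members. Within 50 bp of the summit the median GC content was 48.5% (quartiles 43.6 and 52.97), and 300 bp to either side it was 35.6%. Members outside the list had 35.6% at the summit and 34.7% at the flanks. The rise was therefore local to the summit. High GC content in the optimal list was not particular to these promoters. The median was 48.5% for divergent promoters in the list, 54.95% for X promoters and 51.5% for autosomal regions away from promoters. Over all regions of those parts the medians were 38.6%, 39.6% and 35.6%. On the strand of the gene the optimal windows held 24.8% C and 22.9% G, against 19.4% and 17.2% for the others.

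The share of members in the optimal list was higher from 40% GC upwards. It was 0.233% below 30% GC, 0.581% from 30% to 35%, 0.564% from 35% to 40%, 1.82% from 40% to 45%, 5.17% from 45% to 50% and 7.41% at 50% or more. The range among the 83 ran from 19.8% at lem-2, a nuclear envelope gene, to 65.4% at egl-30, which encodes a Gq alpha subunit, and at Y59A8B.24. A GC-rich summit was thus common in the list and not required. All 36-mers of the window were unique in the genome at 79 of the 83, and at 94.1% of all members. The part of GC content in the signal was not tested.

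**Figure D4:**
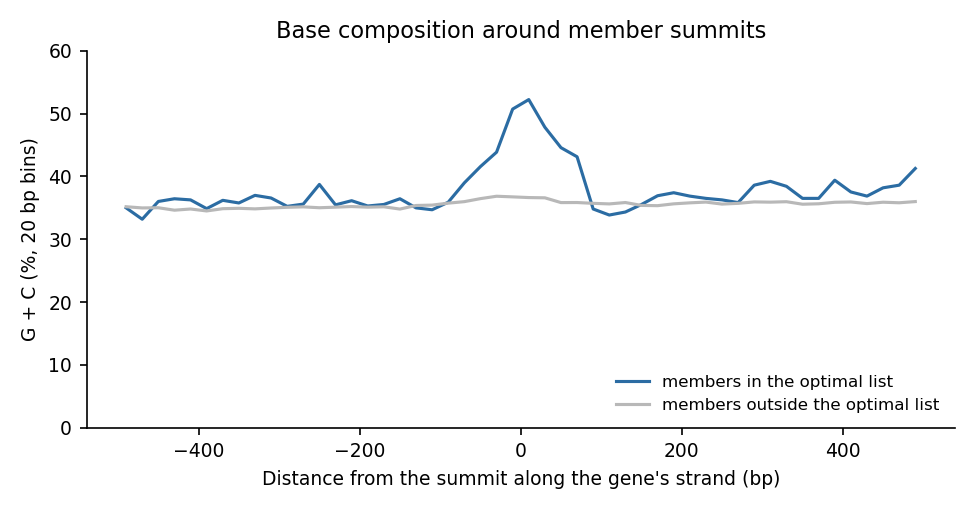
Mean G + C content in 20 bp bins by distance from the summit along the strand of the gene. Members in the optimal list (blue) peak at 52.2% beside the summit and return to 34.8% at 90 bp, while members outside the list (grey) stand at 36.6% beside the summit.

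Short words were then counted within 50 bp of the summit, on both strands. The homeodomain core TAATTA was in 2 of the 83 windows (2.41%), in 5.56% of the other members and in 5.17% of all pooled regions. The paired-type dimers TAATNNATTA and TAATNNNATTA were in 0 of the 83. The TATA box TATAAA was in 3.61% of the 83 and in 11.8% of the other members. The GC box GGGCGG was in 12.05% (10 of 83), in 2.87% of the other members and in 3.36% of all regions. At divergent promoters in the optimal list it was in 20.3% (15 of 74). The CCAAT box was at similar shares of 20.5% and 17.9%. The A/T-rich words were thus less frequent and the GC box more frequent at these GC-rich summits. A match describes only the letters in the window.

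The 7-base element GGCCTAG came from CTAGGCCA, the 8-base word whose share differed most between members in and outside the optimal list (13 of 83 members in the optimal list, 59 of 4569 others), and so was chosen after its values were seen. It was in 16 of the 83 windows (19.3%), in 80 of the 4569 others (1.75%) and in 1.62% of all pooled regions. None of the 166 windows 300 bp to either side of the 83 summits held it. Within 50 bp of the summits 17 copies were found, 11 of them within 25 bp, with 9 on the strand of the gene and 8 on the other. The word was picked for its share within 50 bp of these same summits. More copies there than at the flanks was thus built into the choice. The copies showed no preferred direction. The nuclear chromosomes hold 8274 copies in all, of which these 17 are a small part.

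**Figure D5:**
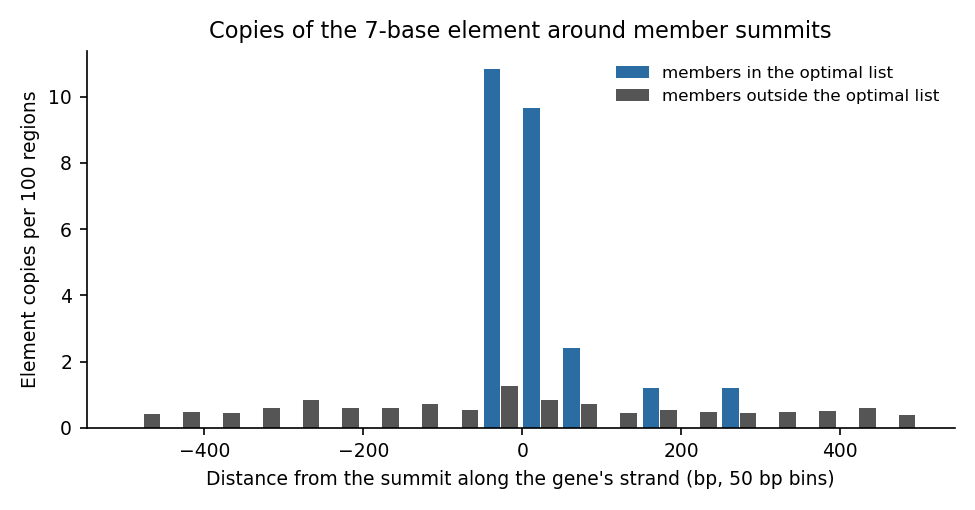
Copies of the element per 100 regions by distance from the summit in 50 bp bins along the strand of the gene. Members in the optimal list (blue) hold 10.8 and 9.64 copies per 100 regions in the bins next to the summit, against 1.27 and 0.854 for the other members (dark grey). The element was chosen from words near these same summits.

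Of the 96 members with the element, 16 (16.7%) were in the optimal list, against 67 of 4556 (1.47%) without it. Among members of 45% GC or more the shares were 25% (10 of 40) and 5.44% (47 of 864). The word was chosen for its share in these same members, so a gap in this direction was favoured by the choice. At divergent autosomal promoters the element was in 8 of 74 windows of the optimal list (10.8%), and 8 of 30 regions with it were in the list (26.7%) against 66 of 746 without it (8.85%). The element was therefore not particular to one-directional promoters.

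The element moved with replicate 1. Of the 16 members of the optimal list with it, 15 were matched in both libraries, and 14 of those 15 ranked higher in replicate 1. Their median signal was 56.6 in replicate 1 (median rank 97) and 23.2 in replicate 3 (median rank 1659). The 56 matched members without the element had median signals of 35.7 and 47.4, and 31 of them ranked higher in replicate 1. The exception among the 15 was R148.3, with 17.4 in replicate 1 and 85.7 in replicate 3. By contrast cux-7 had 96.9 and 26.0, and cyn-10, a cyclophilin gene, had 81.9 and 19.03.

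Ranking each library alone gave a split of the same direction. Of the members in the list of replicate 1 that were among its 519 strongest regions, 25 of 106 (23.6%) held the element, against 1.51% of its other members. In the list of replicate 3 it was 1 of 82 (1.22%), against 1.33% of its other members. The element was thus frequent among the strongest members of replicate 1 and not among those of replicate 3. In the list of replicate 3, 76 regions met the rule and had a summit of the optimal list within 100 bp, and 13.2% of them held the element. In the list of replicate 1 it was 17.5% of 80. The optimal list was itself made from both libraries. The word GAGTACAC, the next 8-base word by the same difference that is not a shifted copy of the element, and also chosen after its values were seen, was in 14 of those 106 (13.2%) and in 2 of the 82 (2.44%). The word CGCACA, first of the 6-base words by that difference, was in both, at 16.04% (17 of 106) and 23.2% (19 of 82). GC content was alike, with medians of 46.04% and 47.5%. Which difference between the libraries goes with the element was not tested.

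The genes with the element had varied products. They included set-2, an H3K4 methyltransferase, with signals of 54.6 in replicate 1 and 39.1 in replicate 3. Also among them were mys-1, a Tip60-type acetyltransferase (44.4 and 29.2), and taf-12, a subunit of the general transcription factor TFIID (58.1 and 26.0). The prefoldin gene pfd-5 had 55.1 and 23.2. The gene of the mitochondrial ribosomal protein mrps-35 had 56.6 and 12.3. All of these were higher in replicate 1.

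The 25 gene lists covered 806 members, of which 25 (3.1%) were in the optimal list. The share was 1.78% over all members and 2.10% over all pooled regions. Counts in single lists were small, and no list was tested. The other members of the optimal list belonged to none of them. Of 32 members at cytoplasmic ribosomal protein genes 5 were in the optimal list (15.6%), at rpl-3, rps-24 (2 regions), rps-28 and rpl-35. At rps-24, which encodes a small subunit protein, 1 region 310 bp upstream had 108.2 pooled, 50.6 in replicate 1 and 53.6 in replicate 3. The other, 538 bp upstream, had 109.0 pooled and 68.04 in replicate 1 and no match in replicate 3. At rps-28 the values were 100.6, 28.1 and 74.0, and at rpl-35 84.9, 38.9 and 45.7. Every ribosomal protein region of the optimal list except that 538 bp upstream of rps-24 was matched in both libraries.

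The shares that follow stand beside 1.78% over all members. Chromatin genes held 4 of 39 (10.3%), at swsn-3, set-2, mys-1 and cbp-1, the CBP/p300 acetyltransferase gene, which had 96.1 pooled, 47.6 and 51.6. Translation factors held 2 of 16 (12.5%), at eif-3.B and eif-3.C, and the ubiquitin system 3 of 37 (8.11%), at eel-1 (2 regions) and usp-4. The second eel-1 region, 765 bp upstream, had 107.7 pooled, 62.3 in replicate 1 and 37.4 in replicate 3. The histone list held 2 of 15 (13.3%), both at hil-7, a linker histone gene. One of these, 198 bp upstream, had 137.6 pooled, 74.7 in replicate 1 and no match in replicate 3. The other, 3 bp inside the gene, had 81.1 pooled, no match in replicate 1 and 73.3 in replicate 3. The replicates thus placed their summits at different points of this promoter. The sor-1 gene, which helps to repress Hox genes, also had 2 regions in the list, at 104.3 and 91.2 pooled. At eel-1, hil-7, rps-24 and sor-1 the 2 regions overlapped each other, and each was counted.

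Muscle genes held 2 of 20 (10%, beside 1.78% over all members), at unc-112, the kindlin of muscle attachments, and mlc-3, a myosin light chain. At unc-112 the signal was 57.0 pooled, 7.88 in replicate 1 and 40.5 in replicate 3, and at mlc-3 it was 50.7 pooled with no match in replicate 1 and 40.4 in replicate 3. Each had a match of summits in replicate 3, and that at unc-112 was the higher of its 2 values. Further lists held 1 each, at nuo-2 (complex I of respiration), npp-6 (a nucleoporin), pfd-5, mrps-35, sec-61.G (the translocon), lin-23 and taf-12. For nuo-2 the signal was 70.7 pooled, 21.3 and 46.02, for npp-6 65.5, 35.4 and 34.5, and for sec-61.G 92.03, 36 and 55.9.

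In 12 of the 25 lists, with 439 members, none was in the optimal list, where the share over all members was 1.78% and over all pooled regions 2.10%. No list was tested, and at shares this low a count of 0 is no result about the genes of any single list. The 12 lists were grouped because their count was 0, so their joint count of 0 was fixed by that choice. These were aminoacyl-tRNA synthetases (17 members), proteasome (7), splicing (20), vacuolar ATPase (9), homeobox factors (32), nuclear hormone receptors (59), other transcription factor families (24), Wnt, Notch and TGF-beta signalling (24), axon guidance (18), synapse and neuropeptides (34), collagens and cuticle (51) and chemoreceptors (144). The lists do not hold every gene of their kind, and plrg-1 and daf-19, both in the optimal list, are in neither the splicing list nor the one of other transcription factors. The median signal was lowest in the other transcription factor families, at 16.4, and highest in the histone list, at 31.5. A missing place in the optimal list does not show that EYG-1 was absent from these promoters.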

How the data were processed

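The authors deposited lists of regions in the ce11 build, each with the signal of the peak caller against a control as its value. Per the deposited notes, replicate and pooled lists included background regions besides peaks, while the optimal list kept regions that passed an irreproducibility (IDR) cut, whose exact inputs are not given. The aligner, peak caller and versions are not given in the sources used here. Read depth is unknown, and no interval is given for the shares. Summits were assigned to genes of the Ensembl annotation of WBcel235 with python 3.11.15, numpy 2.4.6 and pandas 2.3.3, and sequence came from the RefSeq genome. Lists were joined where summits lay within 100 bp. Gene assignment and the reading of the opposite strand were checked on invented cases with known answers. The members, gene lists and motifs were chosen with earlier results of these data known. Genes named are the 20 strongest members in the optimal list, up to 3 per gene list, those with several regions and those at the limits of the rule, and other genes were named after their values were seen. The alternatives changed the window, the distances, the annotation, the match, the signal threshold and the replicate used, and none of these results has a test. Lists in the ce10 build were not used here.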

Additional observations from a re-analysis of the deposited data

How the results depend on the processing

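The share of members in the optimal list was 1.78%. It became 2.89% with a window of 500 bp upstream to 100 bp downstream (3044 members), 2.82% where any overlap of 1 bp counted as a match, 0.387% where start and end had to be the same, and 7.33% among the 5000 strongest pooled regions (1133 members). In the list of 1 replicate it was 1.6% to 1.61%. The median percentile rank was 46.2, 49.9 among the 5000 strongest, and 46.9 to 47.1 with 1 replicate. Matching in both replicates stood at 85.5%, 100% by overlap and 62.7% within 50 bp. The upstream share of 92.8% was 95.5% with the 5' ends of transcripts, and the median distance of -277 bp was -210 bp in the narrow window. The median GC content of 48.5% was 42.3% within 100 bp of the summit and 46.5% to 47.5% at summits of 1 replicate. The share with the element was 13.2% to 17.5% at summits of 1 replicate and 21.7% within 100 bp, both added after seeing the data. Of 32 alternative values, 16 stayed within the limit set for them and 16 did not. The limits differed between results, so these counts do not measure how firm a result is. The element share stayed within its limit at 13.2%, while the median rank left its limit at 46.9. The share of members in the optimal list left its limit with the narrow window, both other kinds of match and the 5000 strongest regions. No paired analysis was possible because the series has 1 group. Depth is unknown, no control or wild-type library was used here, and weak regions include background by construction, so a missing region does not show that the protein was missing.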
